A study of Mus musculus with 23 samples.

Results

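The glucocorticoid receptor and 7 genes tied to it were followed in the brown adipose tissue (BAT) of mice kept at room temperature (RT) or at 4°C, with or without the mitochondrial calcium uniporter in brown adipocytes. The 8 genes were taken by symbol from a table of 14651 genes, and all 8 were found. They are Nr3c1, which encodes the receptor, Hsd11b1, which encodes the enzyme that makes active hormone inside the cell, and the receptor's target genes Fkbp5, Tsc22d3, Sgk1, Zbtb16, Klf9 and Ddit4. All 8 had passed the authors' filter on low reads, and the fewest reads behind any of their values were 26, for Ddit4 in 1 control mouse at RT.

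RNA from 23 male mice on the C57BL/6 strain, aged 8 to 12 weeks, was sequenced in 4 groups. Control mice were Mcu fl/fl, with loxP sites around exon 2 of Mcu and no Cre, and were kept at RT (n = 6) or at 4°C for 6 h (n = 5). BAT-Mcu-KO mice were Mcu fl/fl;Ucp1-Cre, with the same floxed alleles and a Cre recombinase driven by the Ucp1 promoter, and were kept at RT (n = 6) or at 4°C for 6 h (n = 6). The floxed allele was made in embryonic stem cells of mixed 129 and BL6 origin and then crossed back to C57BL/6J, so all 4 groups carry it. Mice at 4°C were housed singly in cooled cages without bedding and, by the protocol, without food unless stated, so the part of single housing, of food and of cold in a difference between 4°C and RT cannot be told apart. Because Cre follows the Ucp1 promoter, the other cells of the tissue keep Mcu. Only BAT-Mcu-KO mice carry the Cre transgene, so in a difference between genotypes the transgene and the loss of Mcu cannot be told apart.

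The depth was 7129271 to 21006347 reads per mouse. Mcu itself had 70.8 to 136 normalized counts in control mice and 15.2 to 42.4 in BAT-Mcu-KO mice, with no overlap. All 10 markers fixed for brown adipocytes were in the table and above 0 in every mouse. Of these 10, 4 were called higher and 4 lower with cold in control mice, and 3 and 1 in BAT-Mcu-KO mice. Their median log2 change was -0.28 and 0.00178. Ucp1, 1 of the 10, rose from 50590 to 70028 at RT to 140888 to 198043 at 4°C over both genotypes. Only 1 of 10 T and B cell markers was in the table. The summed level of 8 endothelial markers was 4801 to 6497 at RT and 7053 to 12593 at 4°C, that of 10 macrophage markers 715 to 1278 and 1023 to 1805, and that of 8 fibroblast markers 4606 to 8597 and 5250 to 9818. Of the endothelial markers, 4 were called higher and 2 lower with cold in control mice, and 4 and 1 in BAT-Mcu-KO mice. For macrophages these were 3 and 0, and 5 and 0, and for fibroblasts 0 and 1, and 1 and 1. The summed level of 8 skeletal muscle markers ran from 24.9 to 63134 and was uneven within every group. The part of these other cells in the results below was not tested, except for muscle, whose summed level was added to the fit as a covariate after it had been seen. With that covariate 5 and 4 of the 8 genes were called by cold, as without it. Control RT replicate 1 stood apart at the low end for several of the 8 genes. In bulk tissue, fewer cells of a type and less RNA per cell cannot be told apart.

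Glucocorticoids are steroid hormones of the adrenal cortex, corticosterone in mice, that rise with stress, fasting and the active part of the day. The hormone enters cells and binds the receptor, which waits in the cytoplasm in a complex with HSP90 and its co-chaperones. The bound receptor moves to the nucleus, binds DNA at paired AGAACA sites that face each other across 3 bases, and raises some genes and lowers others. Inside adipocytes, the enzyme encoded by Hsd11b1 regenerates corticosterone from its inert keto form, so the level of hormone in the cell need not follow that in blood. Several target genes act back on the system, above all Fkbp5, whose protein lowers the affinity of the receptor for its hormone.

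The 250 bases before a transcript's start were searched in RefSeq promoter windows of GRCm38.p6 on both strands. The motifs were the full glucocorticoid element (AGAACA and TGTTCT spaced by 3 bases), the single site AGAACA, the full cAMP response element, and its core TGACG. The cAMP motifs are included because the cold signal from sympathetic nerves raises cAMP in brown adipocytes. Of the 8 genes, 6 had windows, 13 in all, and no window was found for Nr3c1 or Zbtb16. A full element with no mismatch stood in 1 of the 13 windows, that of 1 of 6 Sgk1 starts, and in 3 of all 32851 windows (0.00913%), the others being near the starts of Acnat2 and Gm35041. The single site stood in 4 windows of 2 genes, Sgk1 and Tsc22d3, against 16.1% of all windows, and a full element holds the single site on both strands. The cAMP core was in 3 windows of 3 genes, Tsc22d3, Sgk1 and Klf9, against 17.8% of all windows. The full cAMP element was in none of the 13 and in 1.55% of all. A match of letters describes the sequence only, and most known binding sites of the receptor lie farther from a start than these windows reach.

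Windows of 3 genes to which the later results return are shown, with the searched motifs in capitals. Sgk1 holds the full element from base -189, counted back from the start, and a further single site stands upstream of it. Klf9 holds a cAMP core from base -46, and Tsc22d3 a single site from base -185, of which only the 113 bases outside the annotated transcript are given. Each runs 5′ to 3′ on the strand of its gene.
Sgk1, chr10:21993640-21993889, plus strand: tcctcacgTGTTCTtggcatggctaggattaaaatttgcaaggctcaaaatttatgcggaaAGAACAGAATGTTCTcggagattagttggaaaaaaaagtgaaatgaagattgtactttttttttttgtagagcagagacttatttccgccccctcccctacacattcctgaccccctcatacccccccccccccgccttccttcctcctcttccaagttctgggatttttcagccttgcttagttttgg
Klf9, chr19:23140976-23141225, plus strand: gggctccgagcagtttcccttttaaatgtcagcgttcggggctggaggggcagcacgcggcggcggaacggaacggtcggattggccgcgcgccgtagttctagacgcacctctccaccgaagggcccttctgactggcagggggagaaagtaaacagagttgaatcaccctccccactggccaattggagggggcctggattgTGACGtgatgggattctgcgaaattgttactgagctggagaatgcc
Tsc22d3, chrX:140600660-140600772, minus strand: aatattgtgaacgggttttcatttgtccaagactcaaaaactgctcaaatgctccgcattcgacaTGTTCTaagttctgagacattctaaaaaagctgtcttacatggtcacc

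Levels are normalized counts, in which the reads of each gene are corrected for the depth of the library. Comparisons between groups used limma on log2(normalized count + 1), with p-values adjusted over all 14651 genes and a call at an adjusted p under 0.05. Fold changes are on this log2 scale, so they compare geometric means and need not equal the ratio of the mean counts. To compare genes roughly, counts were divided by the kilobases of all annotated exons of a gene merged. The transcripts in use may be shorter, so the order is approximate. On this scale, the mean level in control mice at RT was 709 for Hsd11b1, 359 for Tsc22d3, 236 for Sgk1 and 194 for Klf9. It was 134 for Nr3c1, 118 for Zbtb16, 79.1 for Ddit4 and 28.5 for Fkbp5. In control mice at 4°C the order began with Sgk1 at 775, followed by Hsd11b1 at 467, Tsc22d3 at 390 and Klf9 at 327 per kilobase.

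The level of the receptor's own transcript was much the same in the 4 groups. Nr3c1 lies on chromosome 18 (39410545 to 39519421, minus strand, GRCm38). Its normalized count in control mice was 867, 1059 and 1145 at RT (lowest, median and highest of 6) and 935, 1132, 1196, 999 and 1276 in the 5 mice at 4°C. The BAT-Mcu-KO groups had 915, 1037 and 1195 (RT) and 934, 1075 and 1175 (4°C) as their lowest, median and highest. All 4 groups overlapped. The change with cold was 0.10 ± 0.10 (log2, ± SE) in control mice and 0.04 ± 0.09 in BAT-Mcu-KO mice, with adjusted p of 0.407 and 0.758 and 95% intervals of -0.10 to 0.30 and -0.15 to 0.23. Scaling each library to its 75th percentile turned them to -0.00568 and -0.0107, and quantile normalization to -0.0584 and -0.10, with no call.

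Hsd11b1, on chromosome 1 (193221634 to 193264075, minus strand), fell with cold in both genotypes. In control mice its normalized count was 2647, 2991 and 3560 at RT (lowest, median and highest of 6), and 3299, 1681, 1856, 1443 and 1645 in the 5 mice at 4°C. The matching BAT-Mcu-KO values were 2128, 2921 and 3502 (RT) and 1160, 1435 and 3418 (4°C). Of the cold-exposed mice, 4 of 5 control and 4 of 6 BAT-Mcu-KO lay below every mouse of their genotype at RT, while replicate 1 of each cold group kept a level typical of RT. The log2 change was -0.66 ± 0.22 in control mice (adjusted p = 0.0149) and -0.75 ± 0.21 in BAT-Mcu-KO mice (adjusted p = 0.00460), or a level 0.633 and 0.593 times that at RT. Without replicate 1 of the cold group the change was -0.86 in control mice and -0.96 in BAT-Mcu-KO mice. The call in control mice was lost without control 4C replicate 4 (adjusted p = 0.0515).

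Other genes of hormone handling were read from a list of 10, for a second receptor, hormone-converting enzymes, hormone transport and related steps. Of these 6 were in the table and 4 were not analysed here. With cold, 2 of 6 fell in control mice, while 2 fell and 1 rose in BAT-Mcu-KO mice, where 46% and 43.3% of all genes were called in either direction. Nr3c2 encodes the mineralocorticoid receptor, which also binds corticosterone, and its normalized count fell from 168 to 343 at RT to 31.6 to 60.1 at 4°C in control mice, a log2 change of -2.52 (adjusted p = 4.0e-11). The change in BAT-Mcu-KO mice was -2.46 (adjusted p = 2.8e-11). H6pd, whose product supplies the NADPH that the Hsd11b1 enzyme uses, fell by 0.58 (adjusted p = 0.000128) and 0.46 (adjusted p = 0.00101) on the log2 scale. Srd5a3, a gene of polyprenol metabolism in the steroid reductase family, was called higher in BAT-Mcu-KO mice (0.55, adjusted p = 0.00638) and had 0.08 in control mice (adjusted p = 0.721). The transcripts for hormone regeneration and for the second receptor were lower at 4°C, and no change was called for Nr3c1.

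**Figure D1:**
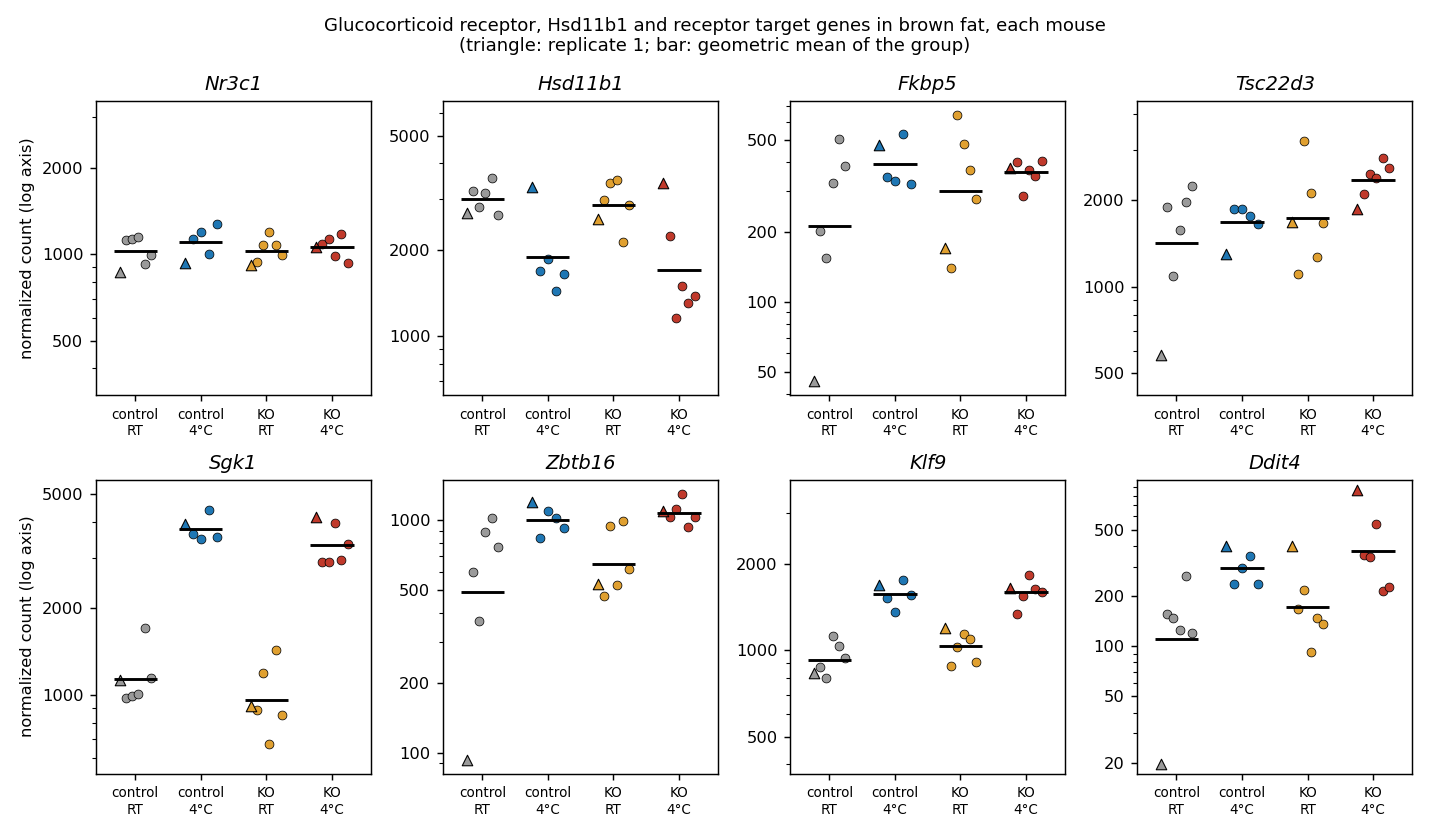
Normalized count of each gene (vertical log axis) in each mouse, by group, with a triangle for replicate 1 and a bar for the geometric mean of the group (KO, BAT-Mcu-KO; n = 6, 5, 6 and 6). Sgk1 and Klf9 at 4°C lie above every mouse at RT of the same genotype, and the RT groups of Fkbp5, Tsc22d3 and Zbtb16 are spread far wider than the 4°C groups.

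Of the 8 genes, 5 were called by cold in control mice, 4 higher and 1 lower, where 46% of all 14651 genes were called, 22.3% higher and 23.7% lower. In BAT-Mcu-KO mice 4 of 8 were called, 3 higher and 1 lower, where 43.3% of all genes were called, 21.4% higher and 21.9% lower. Their median log2 change was 0.82 and 0.53, beside -0.02 over all genes in both genotypes. With so many genes moved by cold, the share of these 8 that was called is near the background and is not a result in itself.

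Sgk1 encodes a kinase that raises ion transport and acts in insulin signaling, and it showed the clearest rise of the 8 genes. It lies on chromosome 10 (21882184 to 21999903, plus strand). The normalized count in control mice was 973, 1065 and 1701 at RT and 3944, 3627, 3475, 4411 and 3554 in the 5 mice at 4°C. The matching BAT-Mcu-KO values were 676, 899 and 1431 (RT) and 2894, 3153 and 4161 (4°C). Every cold-exposed mouse lay above every mouse at RT of its genotype, as 13% of all genes did in control mice and 12.4% in BAT-Mcu-KO mice. The rise was 3.34-fold in control mice (log2 1.74 ± 0.16, adjusted p = 2.07e-09) and 3.47-fold in BAT-Mcu-KO mice (log2 1.79 ± 0.15, adjusted p = 5.95e-10).

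Klf9 encodes a zinc finger transcription factor induced by glucocorticoids and thyroid hormone, and it rose in both genotypes with little spread between mice. It lies on chromosome 19 (23141226 to 23168134, plus strand). Its normalized count in control mice was 798, 910 and 1122 at RT and 1685, 1518, 1358, 1758 and 1559 in the 5 mice at 4°C. The matching BAT-Mcu-KO values were 883, 1059 and 1198 (RT) and 1341, 1618 and 1830 (4°C). As for Sgk1, the groups at RT and 4°C did not overlap. The rise was 1.69-fold in control mice (log2 0.76 ± 0.10, adjusted p = 1.1e-06) and 1.54-fold in BAT-Mcu-KO mice (log2 0.62 ± 0.10, adjusted p = 9.8e-06).

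Ddit4 encodes REDD1, an inhibitor of mTORC1 that also answers to hypoxia and other stress, and it rose in both genotypes from a low and uneven level. It lies on chromosome 10 (59949669 to 59951834, minus strand), 333 kb from Mcu, whose floxed allele both genotypes carry. In control mice its normalized count was 19.8, 136 and 265 at RT and 398, 237, 294, 347 and 236 in the 5 mice at 4°C. The matching BAT-Mcu-KO values were 92.3, 157 and 401 (RT) and 215, 349 and 868 (4°C). The groups overlapped, with 3 of 5 and 2 of 6 cold-exposed mice above every mouse at RT. The log2 change was 1.41 ± 0.45 in control mice (adjusted p = 0.0127) and 1.11 ± 0.43 in BAT-Mcu-KO mice (adjusted p = 0.0389). Without control RT replicate 1, which had the count of 19.8, the change in control mice was 0.92 (adjusted p = 0.0311). In BAT-Mcu-KO mice the call was lost in 8 of the 23 fits that leave out 1 mouse.

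Zbtb16 encodes PLZF, a transcriptional repressor strongly induced by the hormone in many tissues, and its change with cold was called in control mice. It lies on chromosome 9 (48654297 to 48836222, minus strand). The normalized count in control mice was 93.4, 680 and 1023 at RT and 1191, 833, 1093, 1023 and 921 in the 5 mice at 4°C. The matching BAT-Mcu-KO values were 473, 572 and 985 (RT) and 928, 1060 and 1296 (4°C). In control mice 2 of 5 and in BAT-Mcu-KO mice 5 of 6 cold-exposed mice lay above every mouse at RT. The log2 change was 1.03 ± 0.37 in control mice (adjusted p = 0.0271) and 0.73 ± 0.36 in BAT-Mcu-KO mice (adjusted p = 0.104).

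The size of the change and its call moved with the fit. Without control RT replicate 1, the mouse with 93.4, the change in control mice was 0.55 (adjusted p = 0.0434), and the 0.73 of BAT-Mcu-KO mice passed the threshold (adjusted p = 0.00437). The call in control mice was lost without control RT replicate 3, control 4C replicate 1 or control 4C replicate 3, with adjusted p of 0.0561, 0.0553 and 0.0506, and with quantile normalization (0.88, adjusted p = 0.0666). With only the BAT-Mcu-KO groups in the fit, adjusted p was 0.00234, and with only the control groups it was 0.0753. The count models gave 0.70 in control mice, with adjusted p of 0.102 by DESeq2 and 0.0789 by edgeR.

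No change with cold was called for Fkbp5 or Tsc22d3 in either genotype. Fkbp5 lies on chromosome 17 (28399094 to 28517527, minus strand) and encodes the co-chaperone FKBP51. Its normalized count in control mice was 45.6, 265 and 504 at RT and 477, 346, 332, 530 and 324 in the 5 mice at 4°C. The matching BAT-Mcu-KO values were 140, 323 and 642 (RT) and 286, 375 and 405 (4°C). The groups overlapped, with 1 of 5 control and 0 of 6 BAT-Mcu-KO mice at 4°C above every mouse of their genotype at RT. The log2 change was 0.89 ± 0.42 in control mice (adjusted p = 0.0867) and 0.27 ± 0.40 in BAT-Mcu-KO mice (adjusted p = 0.627). Leaving out control RT replicate 5 made the former a call (1.14, adjusted p = 0.0274), and leaving out control RT replicate 1 took it to 0.45 (adjusted p = 0.276).

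Tsc22d3 encodes GILZ, an anti-inflammatory leucine zipper protein, and lies on chromosome X (140539528 to 140600659, minus strand). The normalized count in control mice was 580, 1742 and 2240 at RT and 1305, 1874, 1868, 1766 and 1650 in the 5 mice at 4°C. The matching BAT-Mcu-KO values were 1105, 1674 and 3225 (RT) and 1867, 2432 and 2819 (4°C). The log2 change was 0.24 ± 0.26 in control mice (adjusted p = 0.488), or -0.02 without control RT replicate 1, and 0.44 ± 0.25 in BAT-Mcu-KO mice (adjusted p = 0.162). Without BAT-Mcu-KO RT replicate 3, the mouse with 3225, the latter was 0.62 (adjusted p = 0.0402). Thus Sgk1 and Klf9 did not overlap between RT and 4°C, and Fkbp5 and Tsc22d3 overlapped in both genotypes.

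**Figure D2:**
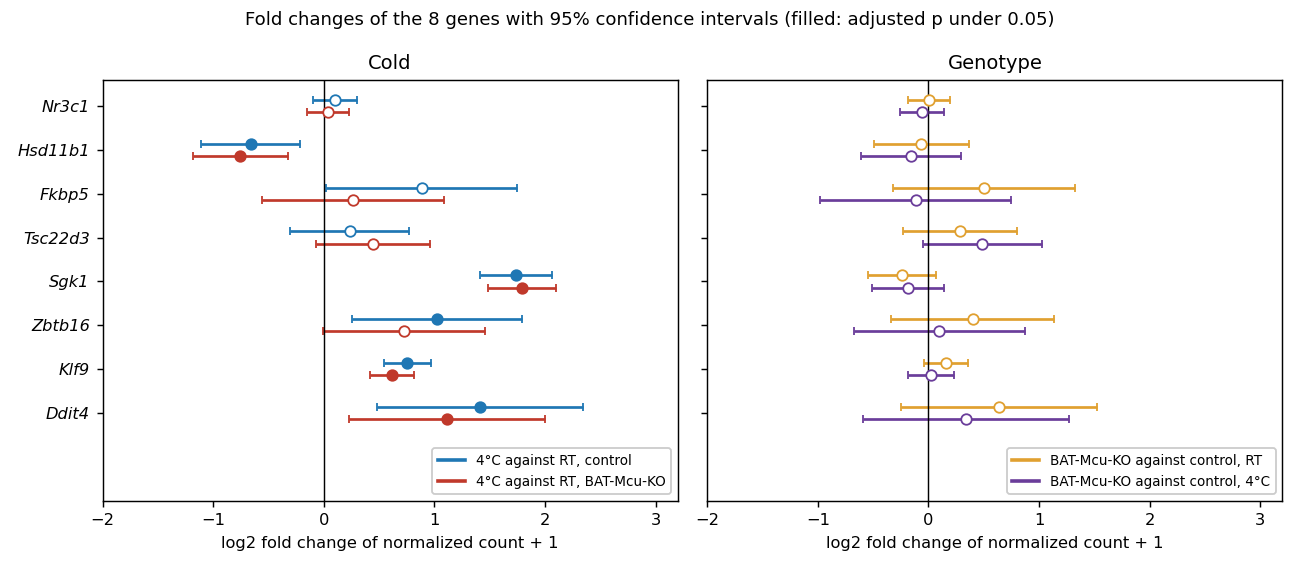
Log2 fold change of each gene (horizontal axis, normalized count + 1) with its 95% interval from limma, for cold in the 2 genotypes (left) and for genotype at RT and 4°C (right), filled where the adjusted p is under 0.05. On the left 5 control and 4 BAT-Mcu-KO values are filled, and on the right none is, with every interval crossing 0.

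No difference between genotypes was called for any of the 8 genes. At RT, 0.0478% of all genes were called, 0.0205% higher and 0.0273% lower in BAT-Mcu-KO mice, and at 4°C 0.0751%, 0.041% higher and 0.0341% lower. The groups did not overlap for 0 of the 8 genes, beside 0.102% of all genes higher and 0.116% lower at RT, and 0.389% and 0.293% at 4°C. Among the 8, limma gave no adjusted p below 0.967 at RT or below 0.740 at 4°C, and 0 of 8 had an unadjusted p under 0.05 in either comparison. The widest intervals were those of Ddit4, which spanned -0.25 to 1.53 at RT and -0.59 to 1.27 at 4°C. Without control RT replicate 1, the log2 difference at RT went from 0.64 to 0.15 for Ddit4, from 0.51 to 0.0664 for Fkbp5, from 0.28 to 0.0214 for Tsc22d3 and from 0.40 to -0.0793 for Zbtb16. For Klf9, a gene with little spread, the intervals were -0.04 to 0.36 and -0.19 to 0.23. For Tsc22d3 at 4°C, 5 of 6 BAT-Mcu-KO mice had 2105 or more and every control mouse had 1874 or less. The log2 difference was 0.49 ± 0.26, with an interval of -0.05 to 1.03 (limma adjusted p = 0.740).

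The difference between the genotypes in their response to cold, the interaction, was not called for any of the 8 genes, where 0% of all genes were called by limma, 878 had an unadjusted p under 0.05 and DESeq2 called 28. Among the 8, 0 had an unadjusted p under 0.05 by limma and 0 were called by DESeq2 or edgeR. The smallest adjusted p was 0.899, for Fkbp5, whose interaction was -0.62 with an interval of -1.82 to 0.57, and -0.18 without control RT replicate 1. Without that mouse the interaction of Tsc22d3 went from 0.21 to 0.47, and those of Zbtb16 and Ddit4 turned from -0.30 each to 0.18 and 0.19, with no call. For Sgk1 it was 0.05 with an interval of -0.39 to 0.50, and for Klf9 -0.14 with an interval of -0.42 to 0.15.

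The spread between mice of 1 group was itself uneven, and it is given here as a description, chosen after the values were seen. At RT, Fkbp5 lay between 45.6 and 642 in the 12 mice of both genotypes, a 14.1-fold range, and at 4°C between 286 and 530 in 11 mice, a 1.85-fold range. Zbtb16 ranged 10.9-fold at RT and 1.56-fold at 4°C, and Tsc22d3 5.56-fold and 2.16-fold. On the log2 scale, the within-group SD at RT was 1.06 for Fkbp5, 0.96 for Zbtb16 and 0.65 for Tsc22d3, and at 4°C it was 0.26, 0.18 and 0.22. The median gene of the table had an SD of 0.30 at RT and 0.32 at 4°C, a ratio of 0.960.

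For these 3 genes, the SD at RT was 5.3 times that at 4°C for Zbtb16, 4.11 times for Fkbp5 and 3.00 times for Tsc22d3. Ratios at least as large were found in 0.0410%, 0.150% and 0.594% of all genes. Zbtb16 ranked sixth of the table, with Tfrc, the transferrin receptor, first at 8.93 and Dio2, the deiodinase that activates thyroid hormone, second at 6.97. In BAT-Mcu-KO mice alone the ratios were 2.83 for Zbtb16, 4.61 for Fkbp5 and 2.57 for Tsc22d3, which 3.03%, 0.416% and 4.08% of genes reached. In control mice alone they were 6.30, 3.77 and 3.38, which 0.314%, 1.51% and 2.20% of genes reached. Without control RT replicate 1 they were 2.84, 3.03 and 2.28 over both genotypes, which 0.737%, 0.53% and 2.16% of all genes reached.

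Of the other 5 genes, the ratio was 1.74 for Sgk1, 1.67 for Ddit4, 1.26 for Klf9 and 1.03 for Nr3c1. Ddit4 differed by genotype, with a ratio of 3.77 in control mice, which 1.5% of genes reached, and 0.934 in BAT-Mcu-KO mice. Hsd11b1 went the other way, with an SD of 0.22 at RT and 0.54 at 4°C, a ratio of 0.416 that 97.3% of genes reached or passed. For Ddit4 the ratio over both genotypes was 1.00 without control RT replicate 1.

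**Figure D3:**
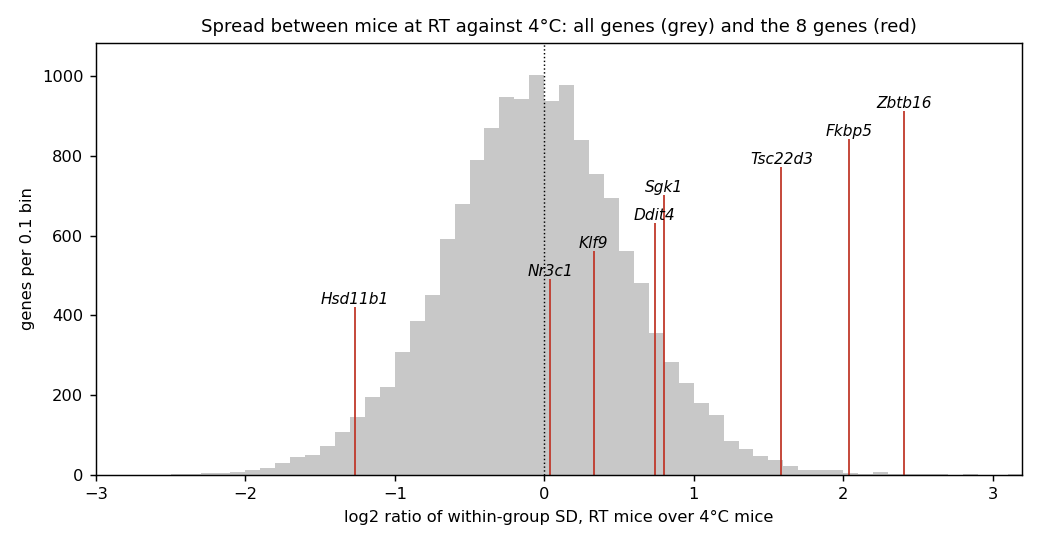
Histogram over all genes of the log2 ratio of the within-group SD in mice at RT (n = 12) to that in mice at 4°C (n = 11), in bins of 0.1, with red lines at the 8 genes. Zbtb16, Fkbp5 and Tsc22d3 lie in the right tail, at ratios of 5.3, 4.11 and 3.00, and Hsd11b1 lies on the left at 0.416.

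One mouse, control RT replicate 1, stood at the low end for most of these genes. It had the lowest value of all 23 mice for 5 of the 8 genes, Nr3c1, Fkbp5, Tsc22d3, Zbtb16 and Ddit4, and for 5.40% of all genes. Among 39 other genes known to be induced by glucocorticoids it was the lowest for 10, among them Per1, a clock gene with a glucocorticoid element, and Hif3a and Foxo1. Its depth was 17394689 reads, above the other mice at RT (11088466 to 14582523) and within the range at 4°C (7129271 to 21006347). Its muscle markers summed to 7500, the highest of its group. BAT-Mcu-KO RT replicate 3 held the highest value of all 23 for 2 of the 8 genes, Fkbp5 and Tsc22d3, and the highest muscle sum, 63134. The labels give no time of day, cage or order of killing for these mice, and the part of any of them was not tested.

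Whether the 8 genes varied together between mice of 1 group was asked with the deviation of each mouse from its group mean, over 23 mice and 28 pairs of genes. Pearson's r was positive in 23 of 28 pairs. After Benjamini-Hochberg adjustment over the pairs, 2 passed in a two-sided permutation test with 100000 resamples within groups, Fkbp5 with Zbtb16 (r = 0.866, p = 0.00044, adjusted p = 0.0123) and Fkbp5 with Tsc22d3 (r = 0.789, p = 0.00236, adjusted p = 0.0330). By Spearman's rho 0 pairs passed, with rho of 0.701 (permutation p = 0.00304, adjusted p = 0.0851) and 0.566 (permutation p = 0.0250, adjusted p = 0.175) for these pairs. Taken group by group, the 2 relations were mainly a feature of mice at RT. Fkbp5 with Tsc22d3 gave 0.933 (control RT), 0.770 (BAT-Mcu-KO RT), -0.455 (control 4C) and -0.298 (BAT-Mcu-KO 4C) by Pearson's r. For Fkbp5 with Zbtb16, the groups in the same order gave 0.982, 0.675, 0.506 and -0.126. These values of single groups were not tested.

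Both relations rest in part on a few mice. Without the 2 mice farthest from the median of Fkbp5, r was 0.678 for Fkbp5 with Zbtb16 (permutation p = 0.0190, adjusted p = 0.373) and 0.605 for Fkbp5 with Tsc22d3 (permutation p = 0.0441, adjusted p = 0.373), so neither passed. The number of pairs that passed was 0 without control RT replicate 1, 0 without control RT replicate 3, and between 0 and 4 over all mice left out in turn. With muscle markers as a covariate, 2 pairs passed, with r of 0.883 for Fkbp5 with Zbtb16 and 0.796 for Fkbp5 with Tsc22d3. Nr3c1 and Hsd11b1 did not pass with any other gene, and r between Nr3c1 and Fkbp5 was 0.243.

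**Figure D4:**
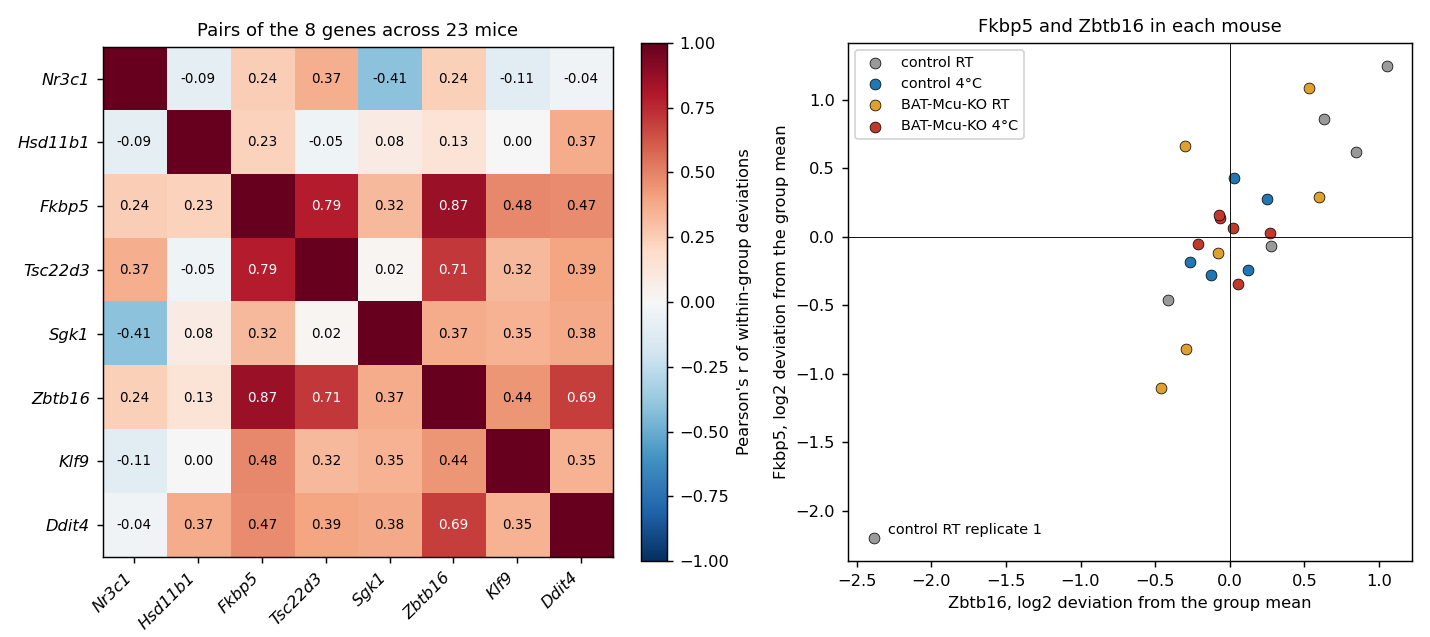
Left, Pearson's r of within-group deviations for the 28 pairs of the 8 genes across 23 mice, in colour from -1 to 1. Right, log2 deviation from the group mean of Zbtb16 (horizontal) and Fkbp5 (vertical) in each mouse, with control RT replicate 1 at the lower left and the mice at 4°C close to the origin. The highest r is that of Fkbp5 with Zbtb16, 0.866.

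The genes of the whole table most like each member were named by the same r, as a description over 23 mice that share a library preparation. For Fkbp5 they were Aff1 (0.872), Zbtb16 and Map3k6 (0.85), a kinase gene. For Zbtb16 they were Fkbp5, Per1 (0.837) and Map3k6 (0.831). Per1 led for Ddit4 (0.810), before Egln2 (0.808), a prolyl hydroxylase of the hypoxia pathway, and Chn2 (0.806). Control RT replicate 1 was the lowest of all 23 mice for Fkbp5, Zbtb16, Ddit4 and Per1. The r values of the most alike genes include that mouse and were not recomputed without it.

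For the remaining genes, the most alike shared fewer names with the members. Tsc22d3 was closest to Fkbp5, Gm11730 (0.780) and Fkbp14 (0.775), and Sgk1 to Rxra (0.787), a nuclear receptor gene, 3000002C10Rik (0.756) and Inf2 (0.749). Klf9 was closest to Tead1 (0.780), Fyn (0.762) and Kalrn (0.753), and Hsd11b1 to Tmem242 (0.793), Trf (0.780) and Cp (0.767), of which Trf encodes transferrin and Cp ceruloplasmin. Nr3c1 was closest to Gm15283 (0.768), 4930430F08Rik (0.732) and Chid1 (0.725).

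Most of the listed chaperones that hold the receptor ready for its hormone were called higher with cold. Of 15 listed genes for HSP90, HSP70 and co-chaperones, 11 rose and 0 fell in control mice, and 10 rose and 0 fell in BAT-Mcu-KO mice, beside 22.3% and 21.4% of all genes called higher. The median log2 change of the list was 0.97 and 0.90, beside -0.02 for all genes. These genes serve the folding of proteins in general and are induced by heat shock factors, so the list is not particular to the receptor. Hspa8, the constitutive HSP70, went from 1295 to 2535 at RT to 9977 to 13425 at 4°C in control mice (log2 2.81, adjusted p = 4.5e-13) and rose by 2.43 in BAT-Mcu-KO mice (adjusted p = 2.1e-12). Hspa4, Ahsa1, Dnajb1 and Dnaja1 rose by 1.29 to 1.55 in control mice and by 0.95 to 1.58 in BAT-Mcu-KO mice. Fkbp4, the co-chaperone that competes with Fkbp5 for the receptor complex, had 1060 to 1856 at RT and 1093 to 1419 at 4°C in control mice, with no call (log2 -0.22, adjusted p = 0.206).

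Of 15 coregulators through which the receptor acts, 4 rose and 2 fell in control mice and 4 rose and 3 fell in BAT-Mcu-KO mice. These are 40% and 46.7% of the list, near the 46% and 43.3% of all genes called. Med1, a Mediator subunit that binds nuclear receptors, rose by 1.01 and 0.98 on the log2 scale (adjusted p = 4.0e-10 and 3.2e-10), and the coactivator gene Ncoa1 by 0.90 and 1.04 (adjusted p = 4.2e-09 and 1.8e-10). The acetyltransferase gene Crebbp rose by 0.62 and 0.57, and Med14 by 0.80 and 0.55. Of the corepressor complex, Hdac3 fell by 0.58 and 0.61 (adjusted p = 1.6e-06 and 4.1e-07), and Ncor1 by 0.30 and 0.49 (adjusted p = 0.00547 and 2.3e-05).

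Among 40 other genes known to be induced by glucocorticoids in 1 tissue or another, 39 were in the table. In control mice 21 rose and 10 fell, and in BAT-Mcu-KO mice 18 rose and 9 fell, or 79.5% and 69.2% called beside 46% and 43.3% of all genes. The median log2 change was 0.65 and 0.51. The genes called higher in both genotypes with the smallest p in control mice were Irs2 (2.51 and 2.46), an insulin receptor substrate, Cdkn1a (2.00 and 1.82), which encodes the cell cycle inhibitor p21, Pdk4 (1.32 and 1.03), which restrains pyruvate oxidation, and Dusp1 (2.59 and 3.05) and Errfi1 (2.52 and 3.09), which damp growth factor signaling. Several of these are also known to answer to cAMP or to fasting.

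On the other side, 10 of the 39 fell in control mice and 9 in BAT-Mcu-KO mice, where 23.7% and 21.9% of all genes were called lower. The number that fell is near that share, and 8 of the genes fell in both genotypes. Pik3r1, which encodes the regulatory subunit p85 of phosphoinositide 3-kinase, fell from 824 to 1486 at RT to 186 to 225 at 4°C in control mice (log2 -2.38, adjusted p = 2.0e-12) and by 2.41 in BAT-Mcu-KO mice (adjusted p = 7.5e-13). Lipe, the hormone-sensitive lipase, fell by 1.62 and 1.52, and Pck1, the enzyme of glyceroneogenesis, by 0.70 and 0.40. Sesn1 fell by 0.74 and 0.49, and Glul, glutamine synthetase, by 0.41 and 0.45. Trim63 and Fbxo32, ubiquitin ligases of muscle, were called higher in control mice alone (4.98 and 1.17), with Trim63 at 7.47 to 925 normalized counts at 4°C in samples whose muscle markers summed to 24.9 to 47766.

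Of 14 genes of cytokines and adhesion that glucocorticoids are known to repress, 5 were in the table. Of these, 1 rose and 1 fell in control mice and 2 rose and 2 fell in BAT-Mcu-KO mice, beside the 46% and 43.3% of all genes called. Icam1, an adhesion molecule, rose by 1.69 and 1.56 on the log2 scale (adjusted p = 1.2e-06 and 2.0e-06). Cxcl10, a chemokine, was listed at 1.09 to 18.6 normalized counts in control mice at RT and at 0 to 5.61 at 4°C, so its fall rests on very few reads. In none of the 5 lists was a gene called by genotype or in the interaction by limma. At 4°C the 6 BAT-Mcu-KO mice had more Pck1 than any of the controls, as 0.389% of all genes did. The log2 difference was 0.35 (limma adjusted p = 0.278). DESeq2 called it (adjusted p = 0.0229) among 27 genes of the whole table.

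**Figure D5:**
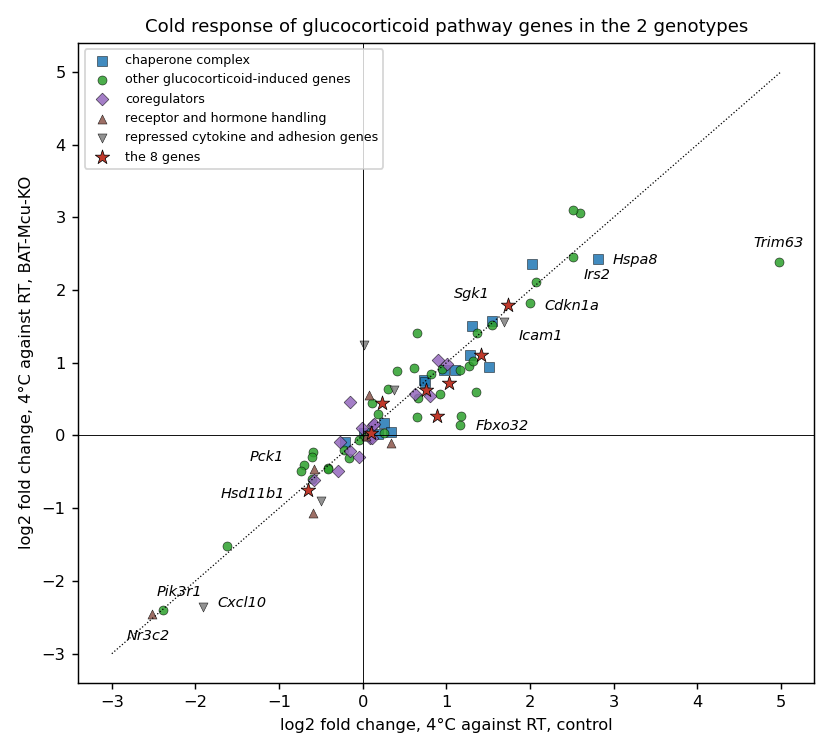
Log2 fold change with cold in control mice (horizontal) and in BAT-Mcu-KO mice (vertical) for the 8 genes (stars) and the other lists, with the line of equal change dotted. Most points lie near the line, with Hspa8 and Irs2 at the upper right, Nr3c2, Pik3r1 and Cxcl10 at the lower left, and Trim63 (4.98 in control mice) far from it.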

How the data were processed

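The authors aligned the reads to mm10 (GENCODE M7) with STAR 2.4.0j, counted unique exon reads with HTSeq irrespective of strand and kept genes that reached 8 reads in 6 or more samples. The signal the authors deposited is normalized counts, reads divided by a DESeq2 size factor. Their table of fold changes and p-values was not used, and 0 per-sample columns were left out. At a tolerance of 0.01 reads, 100.0% of values were whole multiples of 1 read, which gave back the reads. The table held 19 symbols turned into dates, none of them used by name.

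Limma 3.58.1 (R 4.3.3) with a variance trend was fitted to log2(normalized count + 1), with 4 group means, all 23 samples and Benjamini-Hochberg adjustment over 14651 genes. It called 6735 genes by cold in control mice and 6349 in BAT-Mcu-KO mice. On the recovered reads DESeq2 1.42.0 called 6875 and 6618 and edgeR 4.0.16 called 6780 and 6501. The alternatives were pseudocounts of 0.5 and 10, genes with a mean of 50 or more, scaling to the 75th percentile, quantile normalization, only the compared groups, the replicate number as a block, both count tests and each sample left out in turn. Muscle markers as a covariate, the spread between mice and the lowest mouse per gene were added after the data were seen. Correlations used numpy 2.4.6 and scipy 1.17.1. Positions come from GENCODE M21 on GRCm38 and promoters from RefSeq. The fits were tested on simulated data.

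Groups and replicate numbers came from the labels, which number the samples of a group, and the study gives 5 to 6 mice per group. The p-values measure the spread between these samples. The 8 genes and the lists were chosen with earlier results of these data known. Beside the 8 genes, each list names genes called by cold in both genotypes in 1 direction, at most 5 per direction by the smallest p in control mice, and the 3 genes most like each member. Trim63, Fbxo32, Fkbp4, Srd5a3, Tfrc, Dio2, Hif3a, Foxo1, Pck1 by genotype and Per1 as a low gene were named after their values were seen.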

Additional observations from a re-analysis of the deposited data

Results flagged for a closer look

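Of 32 sets of values (8 genes in 4 groups), 2 held a mouse that stood apart from its group by Dixon's criterion. That is about as many as chance gives at 1 in 20. The criterion was applied to normalized counts, not to the log2 values used in the fits. It did not flag control RT replicate 1, whose log2 deviation for Ddit4 was -2.43. Hsd11b1 was 3299 in control 4C replicate 1, against 1443 to 1856 in the other 4 mice, a gap of 0.778 of the group's range. Sgk1 was 1701 in control RT replicate 5, against 973 to 1148 in the other 5, a gap of 0.759 of the range. Neither mouse ended the call of its gene when it was left out.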

How the results depend on the processing

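Of 4343 values recomputed, 4260 were rated unchanged. For a fold change this means the same direction and call. For a count or an SD ratio it means a value within a set margin, so a count rated unchanged could still differ. Members called were 4 to 6 by cold in control mice and 3 to 5 in the other genotype without 1 mouse, and were 0 by genotype and in the interaction under every setting run. Genes called over the whole table by genotype at RT were 7, but 3 with only the compared groups and 20 by DESeq2. At 4°C they were 11, but 2 with only the compared groups, 7 with the replicate block, 27 by DESeq2, 6 by edgeR and 3 to 16 without 1 mouse, with 3 without control 4C replicate 2, 6 without BAT-Mcu-KO 4C replicate 4 and 7 without control 4C replicate 5. In the interaction they were 0, but 28 by DESeq2 and 0 to 1 without 1 mouse. Pairs of genes correlated were 2, but 0 without the 2 farthest mice and 0 to 4 without 1 mouse. The causes were not tested. Scaling to the 75th percentile changed the calls in control mice from 3269 higher and 3466 lower to 2644 and 4281, with the median gene moved by -0.10.

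Uncalled values near 0 changed sign. Nr3c1 by cold was -0.00568 (control) and -0.0107 (BAT-Mcu-KO) with the 75th percentile and -0.0584 and -0.10 with quantile normalization, and by genotype at RT -0.0223, -0.0157 and, with the muscle covariate, -0.0104, within -0.0418 to 0.0403 without 1 mouse. Ddit4 in the interaction was 0.0124 by DESeq2 and 0.0099 by edgeR, and -0.55 to 0.19 without 1 mouse. Without 1 mouse, Hsd11b1 was -0.12 to 0.0212 by genotype at RT, -0.36 to 0.0415 at 4°C and -0.30 to 0.11 in the interaction, Tsc22d3 by cold in control mice -0.0242 to 0.37, Sgk1 in the interaction -0.0627 to 0.17, Zbtb16 -0.0793 to 0.61 by genotype at RT and -0.51 to 0.18 in the interaction, and Klf9 by genotype at 4°C -0.0318 to 0.07. Of 25 other named genes, 1 lost a call, Cxcl10 in control mice, with quantile normalization (-1.45, adjusted p = 0.0698) and without control 4C replicates 2, 3 or 4.

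Same-numbered mice did not deviate together, with mean correlations from -0.10 to 0.12 and at most 2 pairs over 0.1, so the number was not taken as a pairing. With the replicate block, cold called 6610 genes in control mice and 6376 in BAT-Mcu-KO mice, and among the 8 genes the call of Ddit4 in BAT-Mcu-KO mice alone was lost (adjusted p = 0.0650). At 4°C genotype called 7 genes with the block and 11 without.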
